A study of Rattus norvegicus with 6 samples.

Results

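The 3089 long intergenic noncoding RNA (lincRNA) genes described here were every row of the deposited gene tables whose biotype is lincRNA, leaving out LOC100912578, of 34538 genes in all. A gene was called detected where it had 10 or more counts in at least 3 of the 6 libraries, and 149 lincRNA genes were. The RNA came from femoral fracture tissue of outbred female Sprague Dawley rats. All rats had both ovaries removed at 8 weeks of age, which was used to induce osteoporosis, and 12 weeks later the left femur was cut at the midshaft and fixed with an intramedullary nail of 1.2 mm. The fracture received MgPA-Gel, an injected bone adhesive (MgPA-Gel, 3 libraries), or the gel alone (Gel, 3 libraries). No untreated or uncut femur was analysed here, and the time of harvest was not found in the labels. Nothing in the labels ties a library to an animal of its own, so every p-value below is set against a spread between libraries that could be partly technical.

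Long intergenic noncoding RNAs are transcripts, mostly spliced and made by RNA polymerase II, from loci between protein-coding genes. Some act at chromatin or in nuclear bodies, some host small RNAs, and for most no function is known. They are as a class less abundant and more restricted to cell types than messenger RNAs, so in a whole piece of fracture callus their counts add up over bone, cartilage, marrow and muscle. In such bulk samples fewer cells of a type and less RNA per cell cannot be told apart.

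Most detected members carry only a clone name, and few could be matched to a sequence. Of the 3089 members, 85 matched a promoter of the RefSeq table (GRCr8) by symbol, and 5 of these were detected. The promoter windows below run from 250 bases before to 50 after the RefSeq start of 2 members the results return to, and capitals mark the CG dinucleotides. Tug1 is the one detected member with a well-known name, and LOC102549726 is the most abundant member with a matched promoter. The Tug1 window is chr14:82750485-82750784 on the minus strand, and the LOC102549726 window is chr20:3880958-3881257 on the plus strand.
Tug1: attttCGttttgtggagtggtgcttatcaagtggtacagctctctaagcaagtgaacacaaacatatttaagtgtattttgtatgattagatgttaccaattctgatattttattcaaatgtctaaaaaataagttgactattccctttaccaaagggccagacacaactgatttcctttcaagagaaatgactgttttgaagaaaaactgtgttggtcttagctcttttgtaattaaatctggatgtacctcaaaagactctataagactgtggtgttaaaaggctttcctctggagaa
LOC102549726: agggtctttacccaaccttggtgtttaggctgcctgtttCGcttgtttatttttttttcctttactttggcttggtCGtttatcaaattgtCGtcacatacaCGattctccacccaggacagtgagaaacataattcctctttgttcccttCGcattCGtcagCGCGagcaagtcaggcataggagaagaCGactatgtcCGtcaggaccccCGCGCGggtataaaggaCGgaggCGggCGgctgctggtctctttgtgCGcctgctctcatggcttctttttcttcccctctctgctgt
The Tug1 window holds 1 CG and is 34% G or C, and the LOC102549726 window holds 17 CG and is 50.3% G or C. The median promoter held 4 CG over RefSeq lncRNA genes and 11 over RefSeq protein_coding genes. TATAAA on either strand was found in the LOC102549726 window and not in the Tug1 window, and 14.2% of all 33469 RefSeq promoters hold it. GGGCGG on either strand was likewise found in the LOC102549726 window alone of these, and 33.1% of all promoters hold it. The RefSeq starts were not placed on the build of the deposited coordinates, which the labels do not name, and LOC102549726 lies on the minus strand there. Whether transcription in these libraries began at either RefSeq start was not tested, so the windows describe the RefSeq entries only.

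One further detected member, AABR07038983.1 on chromosome X, starts within the hairpin of the microRNA gene Mir223, with 10 bp in common in the deposited coordinates. miR-223 is abundant in neutrophils and other myeloid cells. Its mature sequences from RefSeq (GRCr8, chrX:65151408-65151430 and chrX:65151450-65151470, plus strand) have the seed, bases 2 to 8, in capitals.
rno-miR-223-5p: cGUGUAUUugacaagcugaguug
rno-miR-223-3p: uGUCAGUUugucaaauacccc
The 2 arms have different seeds.

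The biotype was set against what else the table says of each gene. The deposited description gave a similarity to a known protein for 461 of the 3089 members. Detected members carried one more often, in 54 of 149 (36.2%) against 13.8% of members not detected. Put the other way, 11.7% of members with such a similarity were detected and 3.61% of those without. In 29 members, 7 of them detected, the similarity was to the nearest protein_coding gene itself. In 12, 2 of them detected, it was to the Pol protein of the LINE-1 retrotransposon. Of 100 members with a RefSeq symbol, RefSeq classes 93 as lncRNA and 7 as protein_coding. The 7 members on chromosome Y had no count in any library of these female rats.

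Few lincRNA genes gave reads at the depth of these libraries, 15.4 to 18.2 M (mega) counts in MgPA-Gel and 13.6 to 16.2 M in Gel. No count in any library was seen for 2087 of the 3089 lincRNA genes (67.6%), against 4850 of 22250 protein_coding genes (21.8%). A count of 0 allows a level of up to 3 counts, which is 0.173 to 0.220 CPM (counts per M of the library's TMM-normalised size) in a library, so these genes were not detectable rather than shown to be silent. The libraries were also selected with poly-T beads, which do not capture RNAs without a poly(A) tail. Of the 1002 lincRNA genes with any count, 353 had counts in 1 library only and 209 in all 6.

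The detection rule was met by 149 lincRNA genes (4.82%) and by 13610 protein_coding genes (61.2%). With the stricter demand of 10 counts in all 6 libraries, 78 lincRNA genes and 12320 protein_coding genes remained. Members just inside the rule numbered 25, with a third-highest count of 10 to 12, and 37 lay just outside with 7 to 9. A further view of the edge is that 39 members reached 10 counts in 2 libraries and 92 in 1. Detected lincRNA genes were also longer, with a median length of 1152 bases against 537 over all lincRNA genes. For protein_coding genes these medians were 2394 and 1865 bases. A count minimum takes no account of length, and the part of length in the gap between the classes was not tested.

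The number of lincRNA genes with 10 or more counts was 179, 154 and 152 in MgPA-Gel 1, 2 and 3, against 146, 163 and 127 in Gel 1, 2 and 3. MgPA-Gel 1, the deepest library, was highest and Gel 3, the shallowest, was lowest, and the groups overlapped. The means were 162 ± 15.0 in MgPA-Gel and 145 ± 18.0 in Gel (SD, n = 3 each), a difference of 16.3 that was within the spread between libraries (exact two-sided permutation test, p = 0.4, where 3 against 3 allows no p below 0.1). Without Gel 3 the difference was 7.17 genes and without MgPA-Gel 1 it was 7.67. Counted at 0.5 CPM or more instead, which scales with depth, the difference was 23 genes (exact two-sided permutation test, p = 0.3). The numbers were then 224, 185 and 164 in MgPA-Gel 1, 2 and 3, against 167, 176 and 161 in Gel 1, 2 and 3. MgPA-Gel 1 was again highest and the groups overlapped. MgPA-Gel 1 also stood apart in muscle fibre markers, with a summed level over 9 genes of 40389 CPM, 105 to 1396 CPM in MgPA-Gel 2 and 3 and 11.9 to 507 CPM in Gel, and the part of muscle in it was not tested.

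Where a lincRNA gene was detected, its level was usually low. The deposited FPKM (fragments per kilobase of gene length and per M of a size set for each library, which is not its total count) is per length, so levels of genes may be compared. The median of the 6-library mean was 1.50 FPKM over detected lincRNA genes (interquartile range 0.762 to 3.51), against 7.96 FPKM over detected protein_coding genes (2.85 to 20.3). Library by library the median of the lincRNA genes was lower by 2.20 to 2.67 on the log2(FPKM + 0.01) scale, with a mean difference of -2.41 ± 0.18 (SD, n = 6 libraries), or 5.31-fold. All 6 libraries showed it (exact two-sided sign-flip test, p = 0.0312, the smallest that 6 libraries allow). The same gene sets, chosen by counts in these libraries, were compared each time. This p thus covers agreement between libraries only and is no test over genes. The classes still overlapped: 15 of the 149 lincRNA genes (10.1%) lay above the protein_coding median. Means above 1 FPKM were reached by 96 detected lincRNA genes (64.4%) and by 89.6% of detected protein_coding genes, and means above 10 FPKM by 12 (8.05%) and 43.3%. Detected members with a protein similarity had a median of 1.18 FPKM, and those without one 1.86 FPKM.

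**Figure D1:**
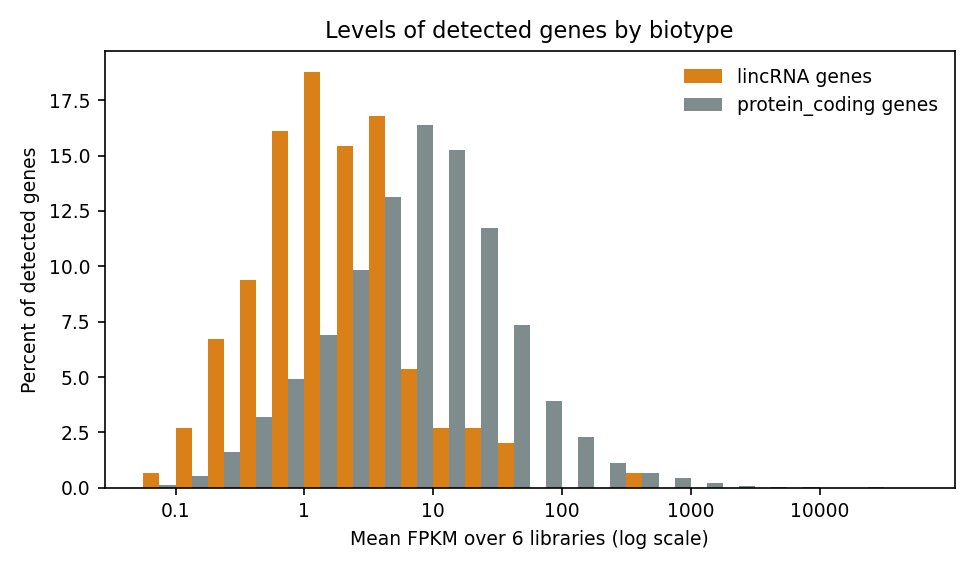
Distribution of the mean FPKM over 6 libraries (log axis) of the 149 detected lincRNA genes and the 13610 detected protein_coding genes, as the percent of each class per bin. The lincRNA genes centre near 1.50 FPKM and the protein_coding genes near 7.96 FPKM, with a single lincRNA gene far to the right at 483 FPKM.

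AC134224.3 (ENSRNOG00000062158, chromosome 1, 221158098 to 221158792, minus strand in the deposited coordinates) had the highest mean of the lincRNA genes and varied the most between libraries. It stood at 13.5, 19.6 and 426 FPKM in MgPA-Gel 1, 2 and 3, against 5.97, 588 and 1842 FPKM in Gel 1, 2 and 3. MgPA-Gel 3, Gel 2 and Gel 3 were high, and MgPA-Gel 1, MgPA-Gel 2 and Gel 1 low, so the split ran across the groups, and the highest library was 309 times the lowest. Its mean of 483 FPKM exceeded that of 98.9% of detected protein_coding genes. The log2 fold change of MgPA-Gel over Gel was -2.41 ± 2.01 (SE; edgeR adjusted p = 0.998).

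Its detected neighbours AC134224.1 and AC134224.2 share its clone name and strand. AC134224.1 stood at 18.9, 13.8 and 9.98 FPKM in MgPA-Gel 1, 2 and 3, against 4.12, 15.9 and 22.5 FPKM in Gel 1, 2 and 3. AC134224.2 stood at 9.71, 17.9 and 9.37 FPKM in MgPA-Gel, against 2.73, 9.95 and 15.1 FPKM in Gel. For both, Gel 1 was lowest and the groups overlapped, but neither showed the jump of AC134224.3: the highest library was 5.47 times the lowest for AC134224.1 and 6.57 times for AC134224.2.

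The share of all counts that fell in lincRNA genes moved with this gene. The share was 0.0869%, 0.0906% and 0.131% in MgPA-Gel 1, 2 and 3, against 0.0747%, 0.134% and 0.207% in Gel 1, 2 and 3. The 95% exact binomial interval was 0.0734% to 0.0761% in Gel 1 and 0.204% to 0.209% in Gel 3, and covers counting error only. AC134224.3 alone made up 0.948%, 1.55% and 25.0% of the lincRNA counts of the MgPA-Gel libraries, against 0.494%, 33.4% and 62.0% of those of the Gel libraries. The mean share was 0.103% ± 0.0243 in MgPA-Gel and 0.139% ± 0.0661 in Gel (SD, n = 3 each), a difference of -0.0359 percentage points within the spread (exact two-sided permutation test, p = 0.6). Without Gel 3 it was -0.00183 points. Leaving out AC134224.3 turned the direction: the share was then 0.0861%, 0.0892% and 0.0981% in MgPA-Gel, against 0.0744%, 0.0896% and 0.0785% in Gel, a difference of 0.0103 points (exact two-sided permutation test, p = 0.3). The mitochondrial share of counts was high in MgPA-Gel 1 and Gel 1, at 25.9% and 24.0%, and 5.29% to 8.83% in the other libraries. MgPA-Gel 1 and Gel 1 were thus among the 3 libraries low in AC134224.3, with MgPA-Gel 2 the exception at 5.29%, and the part of mitochondrial share in the pattern was not tested.

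**Figure D2:**
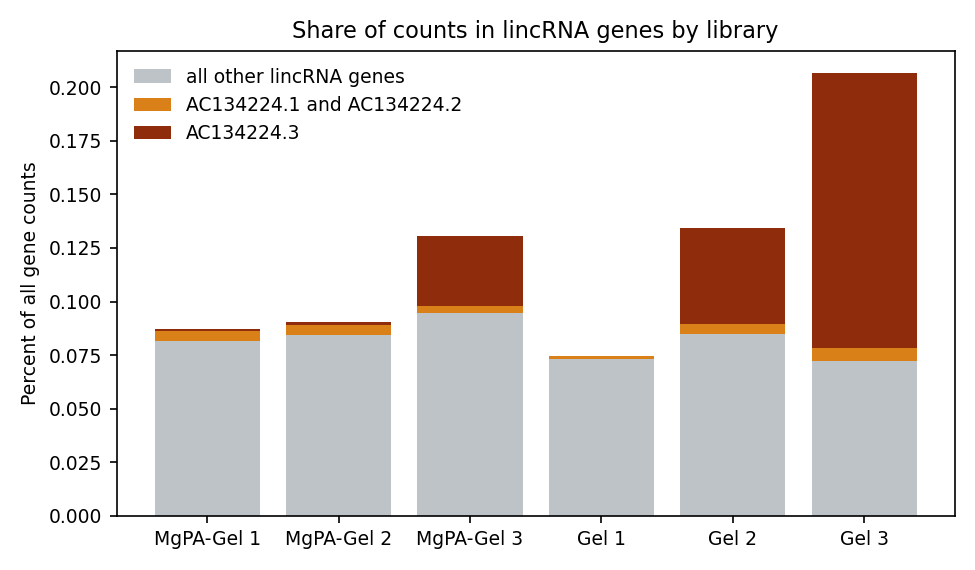
Percent of all gene counts in lincRNA genes in each library, split into AC134224.3, the other detected genes of its clone name, and all other lincRNA genes. Without AC134224.3 the 6 libraries lie between 0.0744% and 0.0981%, and with it they reach 0.207% in Gel 3.

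The other members among the 10 of highest mean FPKM moved far less. AABR07021544.1, similar to the uncharacterised protein KIAA0040, stood at 32.4, 15.7 and 63.2 FPKM in MgPA-Gel 1, 2 and 3, against 53.6, 34.3 and 29.9 FPKM in Gel 1, 2 and 3. MgPA-Gel held both its highest and its lowest library. AABR07002969.1, similar to Pepd, the peptidase that frees proline from dipeptides, stood at 18.7, 35.6 and 43.5 FPKM in MgPA-Gel, against 24.0, 30.3 and 29.8 FPKM in Gel. The groups overlapped here too. AABR07001389.1, similar to LINE-1 Pol, was among the steadiest, at 22.9, 22.5 and 16.1 FPKM in MgPA-Gel, against 21.0, 22.1 and 18.9 FPKM in Gel. LINE-1 copies are repeated through the genome, so how its reads were assigned is uncertain. AABR07070131.1 lies 0.478 kb from Ncam1, a neural cell adhesion gene, on the other strand. It stood at 23.0, 34.6 and 23.8 FPKM in MgPA-Gel, against 22.0, 24.6 and 40.2 FPKM in Gel, and the groups overlapped.

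Reads of 3 of the 10 may be shared with an overlapping gene, for 2 of them one on the other strand, since the strandedness of the libraries is not stated. AABR07021544.1 also overlaps a protein_coding gene, AABR07021544.2, but that gene was at 0 FPKM in all 6 libraries. AABR07019209.1 lies across from Mycbp2, a ubiquitin ligase gene, and stood at 27.0, 27.2 and 49.6 FPKM in MgPA-Gel, against 53.4, 32.6 and 37.0 FPKM in Gel. Mycbp2 was far lower, between 4.77 and 7.22 FPKM in all 6 libraries. A gene named Mycbp2 also overlaps the detected member AABR07019088.1, which starts at 87540751 on chromosome 15, whereas AABR07019209.1 starts at 93643039. Whether a single entry spans both was not checked. AABR07039356.2 lies across from LOC680227, and ranked the libraries much as that gene did. It stood at 32.3, 45.1 and 32.0 FPKM in MgPA-Gel, against 24.3, 50.9 and 23.1 FPKM in Gel, while LOC680227 stood at 20.8, 26.7 and 20.3 FPKM in MgPA-Gel, against 13.5, 34.4 and 14.9 FPKM in Gel. Gel 2 and then MgPA-Gel 2 were highest for both. LOC102549726, whose promoter is printed above, overlaps the class I major histocompatibility gene RT1-CE4 on the same strand in the deposited coordinates and contains 2 snoRNA genes. It stood at 13.5, 14.4 and 12.6 FPKM in MgPA-Gel, against 9.63, 13.8 and 14.4 FPKM in Gel. RT1-CE4, one of a family of similar genes, ranged from 4.44 to 13.1 FPKM.

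**Figure D3:**
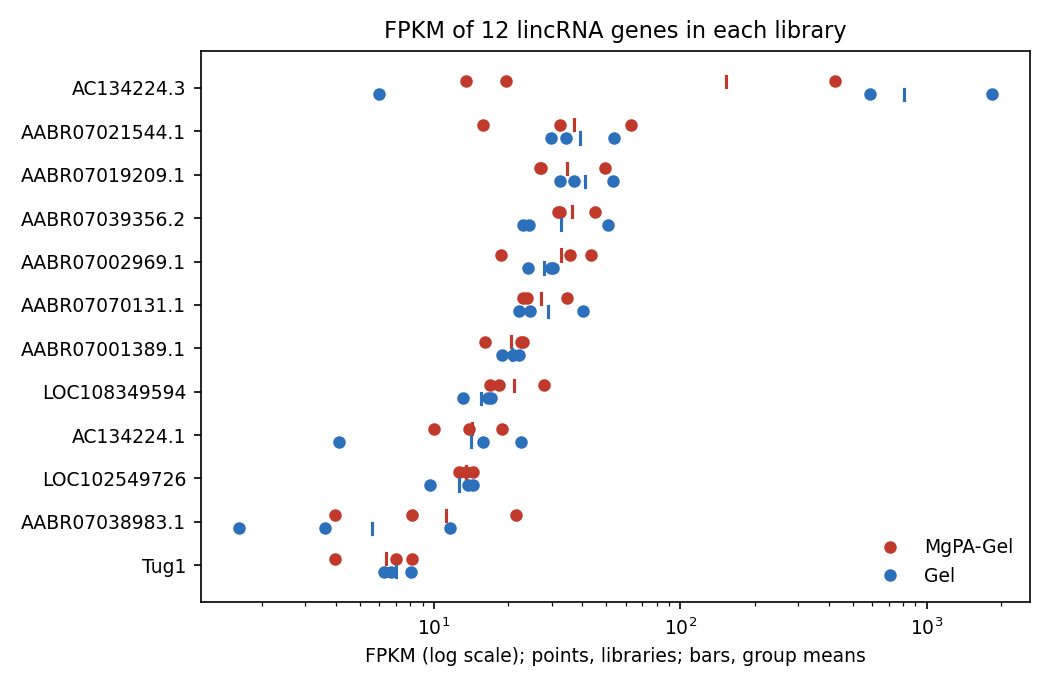
FPKM (log axis) of 12 lincRNA genes in each of the 6 libraries, the 10 of highest mean plus AABR07038983.1 and Tug1, with MgPA-Gel above Gel for each gene and a short bar at each group mean. AC134224.3 runs from 5.97 to 1842 FPKM, while AABR07001389.1 stays between 16.1 and 22.9 FPKM.

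Of 69 well-known lncRNA names looked up, 4 were in the table and 1, Tug1, had the biotype lincRNA. Tug1, a conserved RNA first studied in the mouse retina, lies 1.505 kb from Morc2, a chromatin-silencing ATPase gene on the other strand. It stood at 3.96, 8.11 and 7.01 FPKM in MgPA-Gel 1, 2 and 3, against 6.27, 6.70 and 8.09 FPKM in Gel 1, 2 and 3. MgPA-Gel 1 was low and the groups overlapped, with a log2 fold change of -0.14 ± 0.28 (SE; edgeR adjusted p = 0.998). Its mean of 6.69 FPKM placed it above 45.2% of detected protein_coding genes. Morc2 lay between 5.93 and 8.55 FPKM.

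AABR07038983.1, the member that meets the miR-223 hairpin, is described here after its values were seen. It stood at 8.17, 21.5 and 3.96 FPKM in MgPA-Gel 1, 2 and 3, against 3.61, 11.6 and 1.61 FPKM in Gel 1, 2 and 3. MgPA-Gel 2 was highest, Gel 2 next and Gel 3 lowest, and the log2 fold change was 1.00 ± 0.86 (SE; edgeR adjusted p = 0.998). The row of Mir223 had 0, 22 and 2 counts in MgPA-Gel, against 2, 4 and 0 counts in Gel, so MgPA-Gel 2 was its high library as well. The summed level of 8 inflammatory myeloid markers, among them Il1b and S100a8, was 808, 4664 and 418 CPM in MgPA-Gel, against 274, 467 and 109 CPM in Gel. This sum too was highest in MgPA-Gel 2 and lowest in Gel 3, but MgPA-Gel 1 was next highest, where Gel 2 was for AABR07038983.1. The part of myeloid cells in the level of AABR07038983.1 was not tested.

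Detected lincRNA genes lay nearer to protein_coding genes than the rest did. Among the 149 detected members, 59 (39.6%) overlapped a protein_coding gene or lay within 5 kb of one, against 409 of the 2940 not detected (13.9%). The median distance was 10.3 kb for detected members and 48.1 kb for those not detected. Although the biotype is called intergenic, 11 detected members (7.38%) overlapped a protein_coding gene in the deposited coordinates, 5 of them on the same strand, against 48 (1.63%) of those not detected. A member and its nearest tested protein_coding gene had log2 fold changes of the same sign in 74 of 146 cases (50.7%), against 53.4% for protein_coding genes and their nearest tested neighbour. Within 5 kb or overlapping, the shares were 28 of 52 (53.8%) for lincRNA genes and 53.7% for protein_coding genes. These shares are descriptions, since neighbours come from the same libraries.

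Taken over all genes tested, lincRNA genes varied more between libraries of a group than protein_coding genes did. The median within-group SD of log2 CPM was 0.60 over the 146 lincRNA genes kept by the count filter and 0.35 over 13557 protein_coding genes. As a coefficient of variation from the edgeR dispersion, the medians were 46.4% and 30.8%. The lincRNA genes were also much lower, with a median mean log2 CPM of 0.89 against 4.35. Within bands of level the order depended on the band. Below a log2 CPM of 0 the median SD was 0.74 for lincRNA genes and 0.81 for protein_coding genes. At 4 or more it was 0.46 over 12 lincRNA genes and 0.27 over 7696 protein_coding genes. Levels in that open band were not alike, with a median mean log2 CPM of 4.77 and 5.45. Averaged over the levels at which lincRNA genes lie, the difference was -0.02, against 0.25 with no regard to level. No test was made of the spread, which has no replicates of its own.

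**Figure D4:**
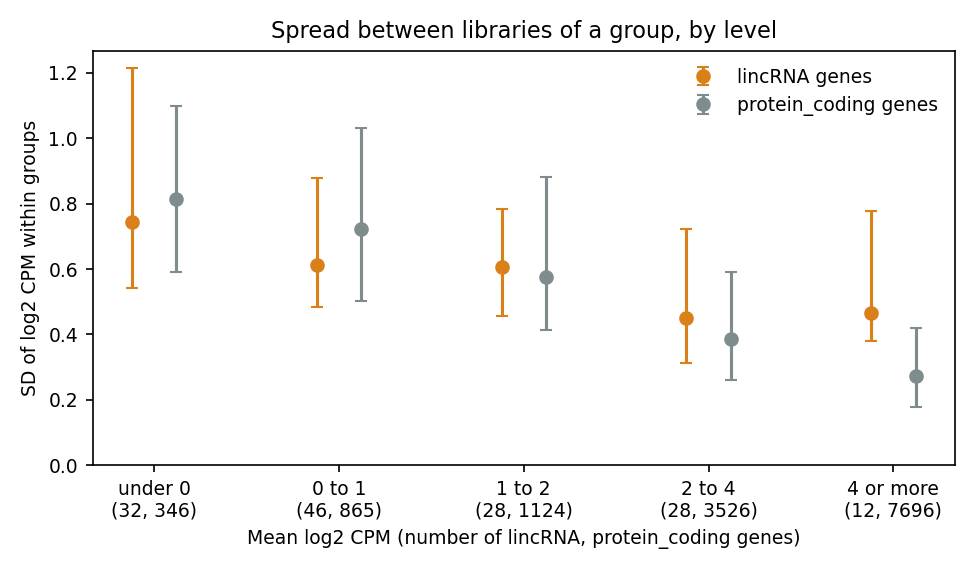
Median pooled within-group SD of log2 CPM (points) with the interquartile range over genes (bars), for lincRNA and protein_coding genes in 5 bands of mean log2 CPM; the numbers of genes stand under each band. The lincRNA median lies below the protein_coding one in the lowest bands, at 0.74 against 0.81 in the first, and above it in the highest, at 0.46 against 0.27.

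Beside AC134224.3, 3 members had the largest spread among those whose mean log2 CPM was 1 or more. AABR07051592.1, similar to an immunoglobulin kappa variable gene segment, had 145, 5 and 1 counts in MgPA-Gel 1, 2 and 3, against 26, 41 and 1 in Gel 1, 2 and 3. MgPA-Gel 1 was high and MgPA-Gel 3 and Gel 3 were lowest. AABR07041096.1, similar to LINE-1 Pol, had 95, 822 and 52 counts in MgPA-Gel, against 28, 113 and 3 in Gel. Number 2 was the highest library in both groups and Gel 3 the lowest. AABR07000382.1, similar to Reps1, had 4, 1 and 49 counts in MgPA-Gel, against 74, 1 and 92 in Gel, so each group held both low and high libraries.

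The steadiest members of that level were AABR07034669.1, AABR07073038.2, AABR07001389.1 and AABR07051787.1. AABR07034669.1 had 113, 82 and 97 counts in MgPA-Gel, against 87, 88 and 89 in Gel, a within-group SD of 0.20 in log2 CPM. AABR07073038.2 had 84, 101 and 91 counts in MgPA-Gel, against 101, 129 and 73 in Gel, with an SD of 0.20. AABR07051787.1, similar to the phosducin-like gene Pdcl, had 192, 128 and 168 counts in MgPA-Gel, against 115, 162 and 107 in Gel, with an SD of 0.22.

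Some detected members were all but absent from one library and clear in another. With at most 1 count in one library and at least 20 in another, limits chosen after the values were seen, 18 of 149 detected lincRNA genes (12.1%) stepped in this way, against 245 of 13610 protein_coding genes (1.80%). In 12 of the 18 the step lay inside one group. Genes of few counts step more often in both classes: at a mean under 20 counts the shares were 14 of 62 lincRNA genes (22.6%) and 16.5% of protein_coding genes, and at 20 to 50 counts 3 of 41 (7.32%) and 4.56%. AABR07037528.1, for one, had 27, 11 and 11 counts in MgPA-Gel, against 26, 25 and 0 in Gel.

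A step both between groups and inside MgPA-Gel was seen in AABR07030791.1 (chromosome 10, 104817972 to 104820399, minus strand), similar to Cd300c, a receptor of myeloid cells. It had 0, 0 and 55 counts in MgPA-Gel 1, 2 and 3, against 152, 164 and 62 in Gel 1, 2 and 3. All 3 MgPA-Gel libraries lay below all 3 Gel libraries, MgPA-Gel 3 close to Gel 3 and the other MgPA-Gel libraries under the limit that a count of 0 allows, 0.188 and 0.189 CPM. The fitted log2 fold change was -2.90 ± 1.56 (SE; edgeR adjusted p = 0.998), ran from -9.98 without MgPA-Gel 3 to -2.12 without both libraries of high mitochondrial share, and depends on how zeros are treated. The nearest protein_coding gene, AABR07030793.1, lies 27.25 kb away on the same strand, is also of the Cd300 kind by its description, and was at 0, 0 and 4.19 FPKM in MgPA-Gel, against 4.30, 11.2 and 1.14 FPKM in Gel. Both genes were thus at 0 in the same libraries. Reads of similar genes can be split between copies, and that was not tested.

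No lincRNA gene passed the test between MgPA-Gel and Gel. In the edgeR quasi-likelihood fit over 14818 genes, 0 of the 146 lincRNA genes had a Benjamini-Hochberg adjusted p under 0.05, where 0% of all genes tested had one, and none came below 0.998. By unadjusted p alone, 2 lincRNA genes (1.37%) were under 0.05 and higher in MgPA-Gel, against a background of 1.78%, and 0 were lower, against 0.844%. DESeq2 called 0 lincRNA genes, against 0.0681% of all genes it gave an adjusted p, and limma on log2(FPKM + 1) called 0 lincRNA genes, against 0% of all genes. Without MgPA-Gel 2 edgeR called 0 lincRNA genes, against 0.0131% of all genes. The estimate was above 0 for 91 lincRNA genes (62.3%) and below 0 for 55, where 54.8% of all genes tested were above 0, with a median log2 fold change of 0.13 against 0.03 over all genes tested. Without MgPA-Gel 1 this split was 78 against 68 and the median 0.02. A log2 fold change beyond 1 in either direction was estimated for 23 (15.8%), against 7.48% of all genes tested, and lincRNA genes are of lower counts.

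All 3 MgPA-Gel libraries lay above all 3 Gel libraries in CPM for 6 lincRNA genes (4.11%), against a background of 3.26%, and below them for 2 (1.37%), against 3.62%. At 146 genes tested, both shares are within a few genes of the background. The 6 were AABR07016845.1, AABR07001068.1, AC111804.2, LOC108349594, AABR07054490.1 and Ly6l, and the 2 were AABR07027407.1 and AABR07030791.1.

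AABR07016845.1 had the smallest p and stood at 1.00, 0.757 and 0.761 CPM in MgPA-Gel 1, 2 and 3, against 0.343, 0.289 and 0.366 CPM in Gel 1, 2 and 3. The MgPA-Gel libraries lay close together and above the Gel ones, all at under 20 counts, with a log2 fold change of 1.32 ± 0.51 (SE; edgeR adjusted p = 0.998). AABR07001068.1 stood at 1.19, 1.26 and 0.819 CPM in MgPA-Gel, against 0.548, 0.462 and 0.366 CPM in Gel, with a log2 fold change of 1.23 ± 0.49 (SE; edgeR adjusted p = 0.998). These are the 2 members with an unadjusted p under 0.05. They lie 436.123 and 344.687 kb from the nearest protein_coding gene. For AABR07001068.1 that gene is Adcy2, on the same strand, and its described similarity is to Adcy2 as well. The log2 fold change of Adcy2 was 0.28 ± 0.36 (SE).

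The most abundant member whose groups did not overlap was LOC108349594, 2.233 kb from the chromatin remodeller gene Chd2 on the same strand. It stood at 63.4, 42.1 and 38.3 CPM in MgPA-Gel, against 38.3, 29.7 and 37.7 CPM in Gel. MgPA-Gel 1 was well above the rest, while MgPA-Gel 3 and Gel 1 differ only in the decimals not printed, and in the deposited FPKM these libraries overlap, at 16.9 in MgPA-Gel 3 and 17.0 in Gel 1. Its log2 fold change was 0.44 ± 0.24 and that of Chd2 was 0.42 ± 0.26 (SE), with Chd2 likewise highest in MgPA-Gel 1, at 9.19 FPKM.

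The other members of smallest p with a higher estimate had overlapping groups. AABR07033564.1, similar to Bach1, a repressor of haem oxygenase that is also its nearest protein_coding gene at 199.877 kb, stood at 18.9, 36.4 and 13.9 CPM in MgPA-Gel, against 11.2, 16.1 and 10.3 CPM in Gel. Its estimate of 0.88 ± 0.39 fell to 0.38 without MgPA-Gel 2, its highest library. AABR07042668.1, 0.076 kb from the osteoblast cadherin gene Cdh11 on the same strand, stood at 1.88, 1.33 and 0.878 CPM in MgPA-Gel, against 0.411, 0.520 and 0.879 CPM in Gel. Cdh11 did not go with it, with an estimate of -0.15 ± 0.26 against 1.17 ± 0.55 for the lincRNA gene. AABR07006475.1, near the glycosyltransferase gene Gcnt1, was estimated at 1.62 ± 0.76 and AABR07054460.4 at 1.01 ± 0.48.

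Among members of smallest p with a lower estimate, AABR07011013.1 stood at 0.625, 0.252 and 0.819 CPM in MgPA-Gel, against 1.51, 1.79 and 0.806 CPM in Gel. MgPA-Gel 3 lay just above Gel 3, so the groups overlapped. AABR07027407.1, whose nearest protein_coding gene is the coagulation gene F13a1 at 144.647 kb, stood at 0.188, 0.757 and 0.527 CPM in MgPA-Gel, against 1.51, 1.04 and 0.953 CPM in Gel. These groups did not overlap, and the log2 fold change was -1.24 ± 0.62 (SE; edgeR adjusted p = 0.998). AABR07004868.2, 1.65 kb from Lrrc32, whose product anchors latent TGF-beta, was estimated at -0.66 ± 0.46, AC128836.1 at -0.90 ± 0.62 and AABR07006311.1 at -1.59 ± 1.05. Each moved by over 1.5 times with 1 library left out: without MgPA-Gel 1 AABR07004868.2 was at -0.43 and AABR07006311.1 at -1.01, and without Gel 3 AC128836.1 was at -0.41. No estimate of these 12 members passed the edgeR threshold.

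**Figure D5:**
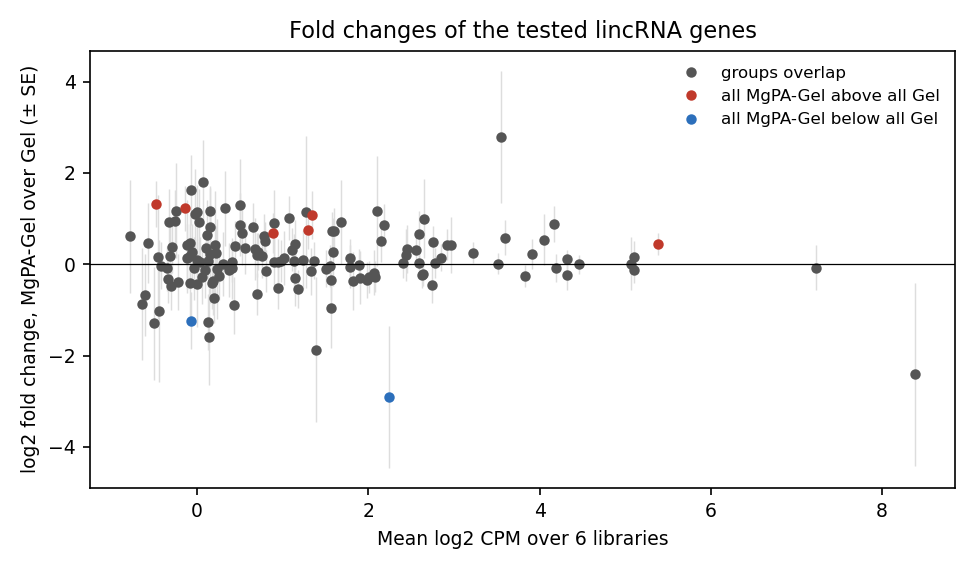
log2 fold change of MgPA-Gel over Gel (± SE, edgeR) against mean log2 CPM for the 146 tested lincRNA genes, coloured by whether the libraries of the groups overlap in CPM. The 6 genes with all MgPA-Gel above all Gel and the 2 below lie among the others, and the gene at the far right is AC134224.3 at -2.41 ± 2.01.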

How the data were processed

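Gene expression was measured by poly-T selected RNA-seq of 6 libraries, 3 MgPA-Gel and 3 Gel, grouped by their titles. Tools named, without roles, per the submitters' processing notes are featureCounts 1.5.0-p3, HISAT2 2.0.5, fastp, edgeR 3.22.5, StringTie 1.3.3b and DESeq2 1.20.0. For the build, nothing was given in the labels. The authors deposited whole, unnormalized gene counts and FPKM for the same 34538 genes; 11692 blank rows and 2 unnamed value columns were not used. The deposited FPKM equals the count over length and over one size per library of 13.7 to 17.3 M, which differs from the total count, within 1% in every gene checked.

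Counts were tested over all genes with edgeR 4.0.16 in R 4.3.3 (filterByExpr, TMM, glmQLFit robust, glmQLFTest, two-sided, Benjamini-Hochberg at 0.05), after the script was tested on simulated counts. filterByExpr kept 146 lincRNA genes, 144 of them detected; 5 detected members were not tested. CPM uses TMM sizes. The SD of log2 CPM uses a prior count of 2. Each SE of an edgeR log2 fold change was its absolute value over the square root of the quasi-likelihood F statistic. DESeq2 1.42.0 and limma 3.58.1 were alternatives. Single values were compared with exact permutation tests.

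The members and lists were chosen with earlier results of these data known. Named were the 10 members of highest mean FPKM, the 6 of smallest p in each direction, the 4 of largest and 4 of smallest SD among members at or above a mean log2 CPM of 1, and listed well-known lncRNAs; AABR07038983.1, AABR07037528.1, AC134224.2 and the members of non-overlapping groups outside that rule were named after their values were seen.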

Additional observations from a re-analysis of the deposited data

How the results depend on the processing

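Between groups, 0 lincRNA genes were called under all 14 alternatives, which over all genes called 0%, or 0.0681% with DESeq2 and 0.0131% without MgPA-Gel 2: RLE factors, no filter, the detection rule as filter, DESeq2, limma on log2(FPKM + 1) or log2(FPKM + 0.1), a replicate block, each library left out, and, chosen after seeing the data, both libraries of high mitochondrial share left out. The edgeR fit with a replicate block gave a smallest adjusted p of 0.578 among lincRNA genes. In deviations from group means, same-numbered libraries correlated at 0.249, 0.200 and -0.0266 and differently numbered ones at -0.286 to 0.0591. The labels give no pairing, and whether the numbers pair the samples cannot be told from these values. The 12 members of smallest p kept their direction under every alternative that gave a value, and AABR07006475.1 was not kept by the detection rule. They were chosen by p and direction from these same libraries, so a kept direction is no independent support.

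Detected members numbered 233 with 5 counts in 3 libraries, 93 with 20, 78 with 10 counts in all 6, 280 with 10 in 1 library, 173 with 0.5 CPM in 3, 95 without members of protein similarity (chosen after seeing the data), and 134 to 143 with a library left out. The median level difference stayed below 0 under every alternative, from -3.62 in CPM to -2.10 without members of protein similarity (chosen after seeing the data); over genes with any count the lincRNA median was 0 FPKM in 3 libraries, so that value rests on the pseudocount and is not given; with a library left out it was -2.45 to -2.35, where the exact p of 0.0625 is the smallest that 5 libraries allow. The difference in share turned to 0.0103 points without AC134224.3 and 0.0102 without the 3 AC134224 members (chosen after seeing the data), and was -0.0678 to -0.00183 with a library left out. The difference in genes detected per library was 7.17 to 25.2 with a library left out. The spread difference turned to -0.0166 within bands of level, was 0.258 without members of protein similarity, and 0.209 to 0.307 with a library left out; the cause was not tested beyond level. Genes of few counts carry counting error that these depths do not remove.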
